A study of Homo sapiens with 4 samples.

Results

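The cyclins and kinases that carry a cell from G1 into S phase were followed in mRNA-seq of cells labelled HepG2, a line grown from a human liver cancer, before and after doxorubicin, a drug that traps topoisomerase II on DNA and breaks the DNA. The set was fixed by name as 10 genes out of 59050 gene symbols in the counts, and all 10 were found. They were the D-type cyclins CCND1, CCND2 and CCND3, the E-type cyclins CCNE1 and CCNE2, cyclin A2 (CCNA2), the kinases CDK2, CDK4 and CDK6, and the phosphatase CDC25A. There were 2 untreated libraries (0 h) and 2 libraries of cells given doxorubicin at 1 µg/ml for 24 h. All were labelled as the same line grown in the same medium. The untreated cells were taken at 0 h, so that the drug and the time in culture cannot be told apart. The titles of the untreated libraries read nop53 mRNA-seq. For the treated libraries the treatment label reads p53-miRNA, while their titles give p53 mRNA-seq. The protocol and series description give doxorubicin to induce p53. Nothing in the labels says that replicates came from separate cultures beyond the series naming them biological replicates. A lower mRNA share in a library of bulk cells can come from fewer cells that make the mRNA or from less mRNA in each cell, and these cannot be told apart.

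D-type cyclins bind CDK4 and CDK6 in answer to growth signals and start the phosphorylation of the retinoblastoma protein, which frees E2F transcription factors. E2F factors then drive the genes for cyclin E, cyclin A and CDC25A. Cyclin E with CDK2 completes the phosphorylation and opens S phase, cyclin A with CDK2 carries it on, and CDC25A removes the inhibitory phosphates from the kinases. After DNA damage, p53 induces the inhibitor p21 (CDKN1A), which binds the cyclin-CDK complexes, and checkpoint kinases mark CDC25A for degradation, a step on the protein that mRNA counts do not show.

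The sequence before the transcription start was read from a set of RefSeq promoter windows (GRCh38.p14), which held 9 start sites of 6 members. CCND1, CCND2, CCNE2 and CDK2 had no window in that set and were not read. For 4 members with a window, the 250 bases before the start are shown. They set genes that E2F is known to drive (CCNE1, CCNA2, CDC25A) beside CDK6, the member with the highest fitted log2 fold change. CDK6 was picked by that value, and no link of motifs with fold changes was tested. Capitals mark the matches on either strand to TCCCGC (E2F core, read as GCGGGA on the other strand), TTTGGCGC and TTTCGCGC (full E2F sites), TTTGAA and CTTGAA (the CHR element of cell cycle genes) and CCAAT (read as ATTGG on the other strand).
CCNE1 (chr19:29811741-29811990, + strand): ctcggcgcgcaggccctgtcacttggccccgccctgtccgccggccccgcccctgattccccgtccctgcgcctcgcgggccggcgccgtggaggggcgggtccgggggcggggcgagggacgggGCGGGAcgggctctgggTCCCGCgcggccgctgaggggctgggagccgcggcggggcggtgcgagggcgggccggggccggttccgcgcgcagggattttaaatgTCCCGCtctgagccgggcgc
CCNA2 (chr4:121823884-121824133, - strand): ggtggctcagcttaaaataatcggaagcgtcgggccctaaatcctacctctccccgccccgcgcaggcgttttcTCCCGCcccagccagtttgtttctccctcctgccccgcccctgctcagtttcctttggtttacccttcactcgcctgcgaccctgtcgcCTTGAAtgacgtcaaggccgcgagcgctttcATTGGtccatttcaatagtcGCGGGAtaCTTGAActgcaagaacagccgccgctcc
CDC25A (chr3:48188418-48188667, - strand): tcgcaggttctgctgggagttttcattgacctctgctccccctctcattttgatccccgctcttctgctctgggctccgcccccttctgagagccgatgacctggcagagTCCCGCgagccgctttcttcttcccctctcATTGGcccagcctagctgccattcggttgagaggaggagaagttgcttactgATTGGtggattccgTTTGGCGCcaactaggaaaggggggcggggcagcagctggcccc
CDK6 (chr7:92836574-92836823, - strand): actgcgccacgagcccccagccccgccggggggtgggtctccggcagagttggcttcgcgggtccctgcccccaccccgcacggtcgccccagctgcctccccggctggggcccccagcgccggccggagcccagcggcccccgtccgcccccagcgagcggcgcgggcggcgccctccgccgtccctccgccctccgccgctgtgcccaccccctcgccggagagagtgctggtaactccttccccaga

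The CCNE1 window held 3 E2F cores, the CCNA2 window 2 E2F cores, 2 CTTGAA elements and 1 CCAAT box, and the CDC25A window 1 full E2F site (TTTGGCGC), 1 E2F core and 2 CCAAT boxes. No marked motif was found in the CDK6 window or before the second CDK6 start, and none before the CDK4 start. Of the 3 CCND3 starts, 1 had an E2F core with a CCAAT box, 1 had a CCAAT box alone and 1 had no match. Marked motifs did not overlap each other in any of these windows. Over 35116 windows of the same length in RefSeq, 23.5% held TCCCGC, 0.550% held TTTGGCGC, 0.439% held TTTCGCGC, 13.3% held TTTGAA, 9.52% held CTTGAA and 32.0% held CCAAT. These matches describe the letters and were not tested as binding sites.

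The libraries held between 27572740 and 36272180 counts. Liver markers were nearly absent, with at most 3 counts of ALB (albumin), 2 of TTR (transthyretin) and 1 of SERPINA1 in any library. The most counts were those of FGB, a fibrinogen gene, with 7 and 5 before the drug and 106 and 70 after it (replicates 1 and 2). HNF4A, a transcription factor of liver cells, had 21 and 8 counts before and 66 and 33 after, while TF and AFP had at most 47 and 43 counts, both in untreated replicate 2. FGB and HNF4A were thus higher in both doxorubicin libraries. The 10 liver markers together reached between 0.965 and 5.80 CPM (a count over the library total, times 1e6). In untreated replicate 1, 6 of the 10 liver markers were at 0 counts. The fibroblast markers were split, since COL1A1 and COL3A1 had 3061 and 2539 counts in that library but COL1A2 had 2, and at most 2 in any library. DCN (decorin) had 17 and 18 counts before the drug and 264 and 189 after it. The 4 fibroblast markers summed to between 116 and 155 CPM over the libraries, those of squamous epithelium to between 2.84 and 7.90, and those of blood and of pluripotent cells to at most 0.519 and 0.450 CPM. The part of these markers in the results was not tested. The low liver markers go against the liver label, and the cell line name is used here only as the label gives it. Untreated replicate 2 stood apart. Its log2 CPM had a correlation of 0.887 with untreated replicate 1 across the 17479 genes that passed the filter on low counts, against 0.988 between the doxorubicin replicates, and in 81.6% of these genes it was higher or lower than all 3 others. Fold changes are therefore given with and without it. Pairs of values below are in the order replicate 1, replicate 2. The untreated replicates were at least 2-fold apart in 4 of the 9 members tested (45.9% of all genes), and the doxorubicin replicates in 0 of 9 (6.09% of all genes).

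Among the members, 9 passed the filter on low counts and CCND2 did not. CCND2, the cyclin D2 gene (chromosome 12, 4269771 to 4305353, GRCh38), had 0 and 11 counts before the drug, and 2 and 0 after it. Only the 11 counts of untreated replicate 2 (0.381 CPM, with an exact Poisson 95% interval of 0.190 to 0.682) exceeded 3 counts, the level taken as the floor (0.0827 to 0.109 CPM). Such intervals cover counting error only. CCND2 was thus at or under the floor in the other 3 libraries, and no fold change was computed.

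**Figure D1:**
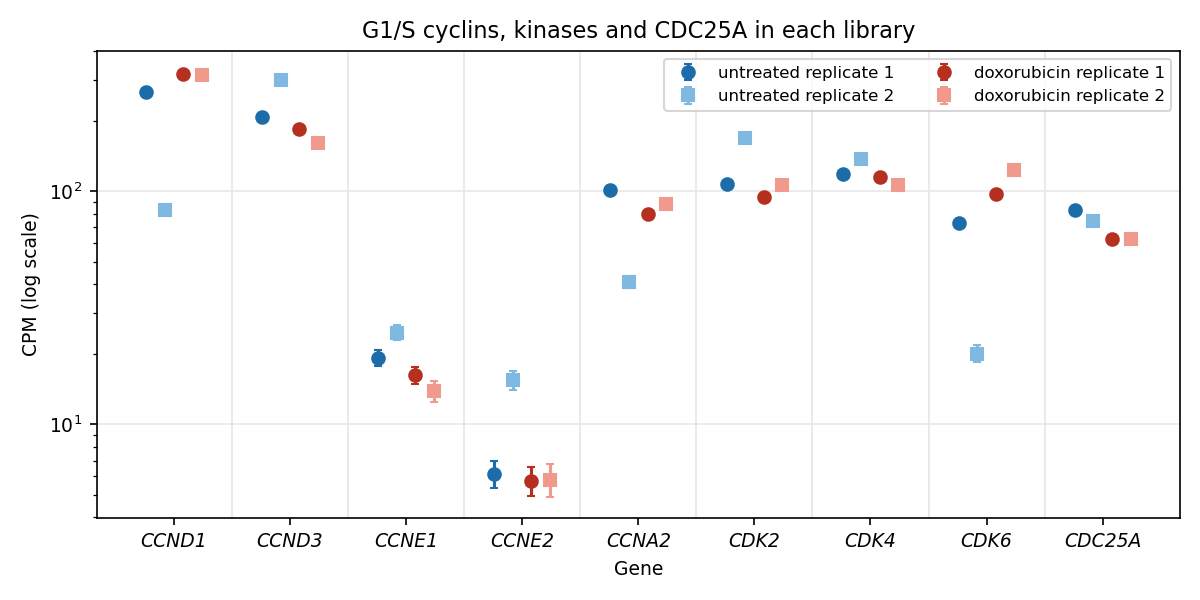
CPM of the 9 members that passed the filter, in each library, on a log axis. Points are single libraries, coloured by group, and bars are exact Poisson 95% intervals (counting error only). Untreated replicate 2 (light blue squares) is the lowest point for CCND1, CCNA2 and CDK6 and the highest for CCND3, CCNE1, CCNE2, CDK2 and CDK4.

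CCND1 and CCND3 encode the D-type cyclins that these cells expressed. CCND1 (chromosome 11, 69641156 to 69654474) had 267 and 83.5 CPM before the drug, and 319 and 317 CPM after it. Both doxorubicin libraries were above both untreated libraries, but untreated replicate 2 was 3.20-fold below untreated replicate 1, a wider gap than that between untreated replicate 1 and either doxorubicin library. The fitted log2 fold change of CCND1 was 0.70 (SE, standard error, 0.56, 95% interval -0.71 to 2.11, adjusted p = 0.777 by edgeR). Without untreated replicate 2 it was 0.11 (95% interval -0.32 to 0.55). On its opposite strand LTO1 shares 11.5% of the exon length of CCND1, and LTO1 had between 17.9 and 21.7 CPM.

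CCND3 (chromosome 6, 41934934 to 42050357) had 208 and 302 CPM before the drug, and 185 and 161 CPM after it. The doxorubicin libraries were both below the untreated ones, and untreated replicate 2 was the highest of the 4. The log2 fold change was -0.71 (SE 0.33, 95% interval -1.54 to 0.11, adjusted p = 0.773 by edgeR), and -0.40 without untreated replicate 2 (95% interval -0.84 to 0.03). CCND1 and CCND3 thus stood on opposite sides of 0 in both fits, and in neither did the interval exclude 0.

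CDK4 and CDK6 are the kinase partners of these cyclins. CDK4 (chromosome 12, 57747727 to 57756013) varied least between the untreated replicates apart from CDC25A, with 118 and 138 CPM, and had 115 and 107 CPM in the doxorubicin replicates. The groups were 3.54 CPM apart at their nearest. Its log2 fold change was -0.36 (SE 0.31, 95% interval -1.13 to 0.40) and -0.23 without untreated replicate 2 (95% interval -0.68 to 0.21). TSPAN31 lies on the opposite strand and covers 53.8% of the exon length of CDK4. The use of strand in counting was not given in the sources used here, so that reads of CDK4 and TSPAN31 cannot be told apart in the shared part. TSPAN31 had 8.33 and 21.2 CPM before the drug, and 11.7 and 15.9 CPM after it.

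CDK6 (chromosome 7, 92604921 to 92836573) had 73.2 and 20.1 CPM before the drug, and 97.3 and 123 CPM after it. It was the member with the widest gap between untreated replicates, 3.64-fold, and both doxorubicin libraries were above both untreated ones. The log2 fold change of 1.07 (SE 0.63, 95% interval -0.50 to 2.64, adjusted p = 0.773 by edgeR) was the highest of the members. Without untreated replicate 2 it was 0.45 (95% interval -0.01 to 0.91), again the highest of the members. The doxorubicin replicates themselves were 0.34 apart on the log2 CPM scale, the widest gap between doxorubicin replicates among the members.

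CCNE1 and CCNE2 encode the cyclins that switch on CDK2 at the entry to S phase. CCNE1 (chromosome 19, 29811991 to 29824312), whose promoter window with 3 E2F cores is printed above, had 19.3 and 24.8 CPM before the drug, and 16.3 and 13.9 CPM after it. The groups did not overlap, with a gap of 3.01 CPM. Its log2 fold change was -0.70 (SE 0.41) with all libraries and -0.49 (SE 0.27) without untreated replicate 2. CCNE2 (chromosome 8, 94879770 to 94896678) was the least counted of the tested members, with 6.12 and 15.5 CPM before the drug, and 5.71 and 5.77 CPM after it. Untreated replicate 2 was 2.53-fold above untreated replicate 1, while the doxorubicin libraries were within the Poisson interval of untreated replicate 1 (5.34 to 6.98 CPM). The log2 fold change of CCNE2 was -1.06 (SE 0.60), and -0.23 (SE 0.33) without untreated replicate 2. INTS8 on the opposite strand covers 47.5% of the exon length of CCNE2. It had 37.6 and 19.6 CPM before the drug, and 33.9 and 46.4 CPM after it. As the use of strand was not given, reads of CCNE2 and INTS8 cannot be told apart in the shared part. The part of such reads in the CCNE2 counts was not tested.

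CDK2 (chromosome 12, 55966781 to 55972789), the kinase partner of cyclins E and A, had 108 and 170 CPM before the drug, and 94.2 and 106 CPM after it. The doxorubicin libraries were both lower, but doxorubicin replicate 2 was only 1.51 CPM below untreated replicate 1, and their Poisson intervals (103 to 110.3 and 104 to 111 CPM) overlapped. The log2 fold change was -0.63 (SE 0.35) and -0.25 (SE 0.23) without untreated replicate 2. The unnamed gene ENSG00000258554 on the opposite strand shares 12.0% of its exon length.

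CCNA2 (chromosome 4, 121816444 to 121823883) encodes the cyclin that works with CDK2 in S phase and later with CDK1. It had 101 and 41.0 CPM before the drug, and 80.3 and 88.6 CPM after it. It was the only tested member whose groups overlapped, with the doxorubicin libraries between the untreated ones. The direction of CCNA2 turned on untreated replicate 2, with a log2 fold change of 0.09 (SE 0.49) with all libraries and -0.40 (SE 0.23, 95% interval -0.85 to 0.04) without it. EXOSC9 on the opposite strand shares 9.24% of the exon length of CCNA2.

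CDC25A (chromosome 3, 48157146 to 48188417), the phosphatase that activates CDK2 and CDK4 and whose promoter window with the full E2F site is printed above, had the closest replicates in each group on the log2 scale. It had 83.4 and 74.4 CPM before the drug, and 62.5 and 62.7 CPM after it, a mean of 78.9 ± 6.35 (SD, n = 2) against 62.6 ± 0.154 (SD, n = 2). It was the only tested member in which untreated replicate 2 lay within the range of the other 3 libraries. The log2 fold change was -0.49 (SE 0.32, adjusted p = 0.773 by edgeR) with all libraries. It was -0.55 (SE 0.23, 95% interval -1.01 to -0.10) without untreated replicate 2, the only member whose interval excluded 0 in that fit, but edgeR gave an adjusted p = 0.133 and the change did not pass the test.

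**Figure D2:**
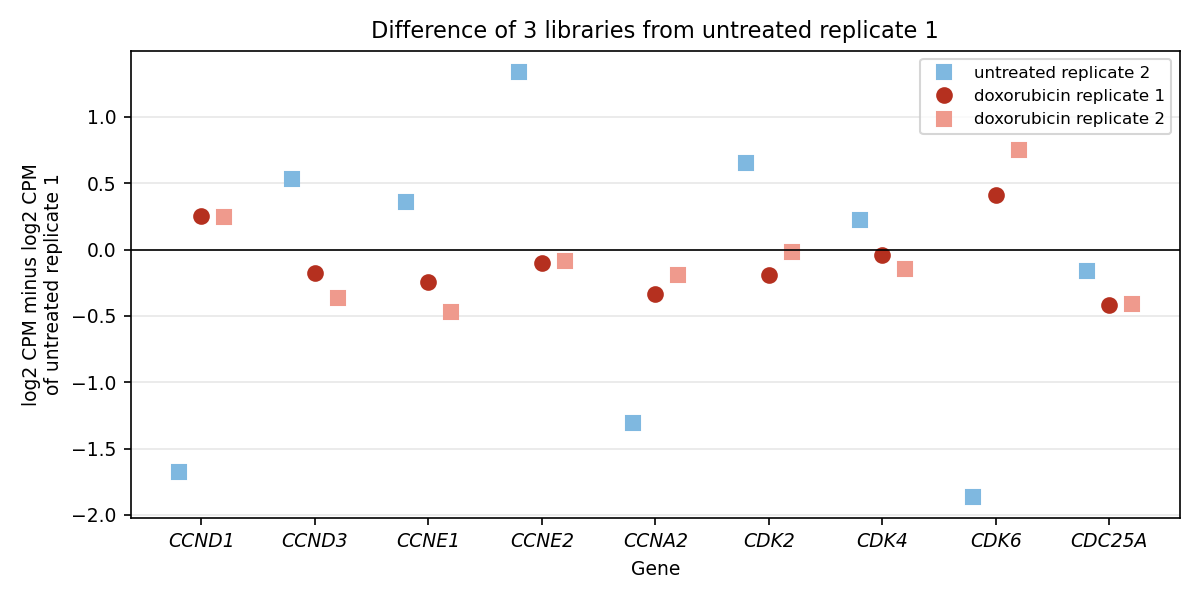
Log2 CPM of untreated replicate 2 and of both doxorubicin libraries minus that of untreated replicate 1, for each tested member, with 1 point per library. The doxorubicin points lie between -0.47 and 0.75, while those of untreated replicate 2 reach from -1.86 for CDK6 to 1.34 for CCNE2.

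Doxorubicin was compared with untreated cells to ask which mRNAs differ after a drug that the study used to activate p53. The part of p53 in any difference was not tested. A gene was called when its adjusted p-value was under 0.05 and its log2 fold change at least 1 in size, the thresholds of the study. With edgeR at these thresholds the study reported significant mRNAs in both directions after p53 activation. The cause of the difference from the calls below was not tested. Of the 9 tested members, 0 were called by the quasi-likelihood test of edgeR, as were 0.0% of all 17479 genes. At an unadjusted p-value under 0.05 there were also 0 members (4.39% of all genes), and 0 members were called by DESeq2 (0.583% of the 15445 genes to which it gave an adjusted p-value), the likelihood ratio test of edgeR (0.366% of all genes) or its exact test (0.217%). With the replicate number as a block 0 members were called (0.114% of all genes), and CDK6 had an unadjusted p-value under 0.05 (6.14% of all genes). The members' log2 fold changes had a median of -0.49 against 0.01 over all genes tested, with 3 members above 0 and 6 below, where 49.2% of all genes were below. With untreated replicate 2 left out the median was -0.25 against 0.05 over all genes, with 7 members below 0 against 46.0% of all genes.

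On the CPM scale, the groups of 8 of the 9 tested members did not overlap, where 41.8% of all genes did not. In 6 of these the doxorubicin libraries were the lower ones (11.5% of all genes) and in 2, CCND1 and CDK6, the higher ones (30.3% of all genes). The gap was only 0.354 CPM for CCNE2, 1.51 CPM for CDK2 and 3.54 CPM for CDK4. For these genes the Poisson intervals of untreated replicate 1 and a doxorubicin library overlapped. When CPM was scaled by TMM factors (trimmed mean of M values, which correct for RNA composition) the same counts were found for the members, and 39.3% of all genes did not overlap, 21.3% with doxorubicin higher and 17.9% with it lower. On CPM without TMM scaling, both doxorubicin libraries were below untreated replicate 1 in 7 members (24.7% of all genes) and above it in 2 (53.1%). These shares leave out untreated replicate 2 and depend on the scaling. With all libraries, TMM scaling moved the share of genes lower in doxorubicin from 11.5% to 17.9%. The members were chosen with results of these libraries known, and no test was made over the list.

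Without untreated replicate 2, 1 untreated library was compared with 2 of doxorubicin, and the lone untreated library was assumed to vary as the doxorubicin pair did (biological coefficient of variation 0.149, against 0.486 with all 4 libraries). In this fit 0 of the 9 members were called, against 4.98% of all genes, and 1 member, CDC25A, had an unadjusted p-value under 0.05 (19.5% of all genes). The adjusted p-values of the members were between 0.133 and 0.837. Without untreated replicate 1 instead, 3 members were called (41.0% of all genes), CDK6 with a log2 fold change of 2.27, CCND1 with 1.74 and CCNE2 with -1.61. The calls of CCND1, CDK6 and CCNE2 therefore existed only against untreated replicate 2 and not against untreated replicate 1, and their share was close to the background. These fits share the doxorubicin libraries.

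**Figure D3:**
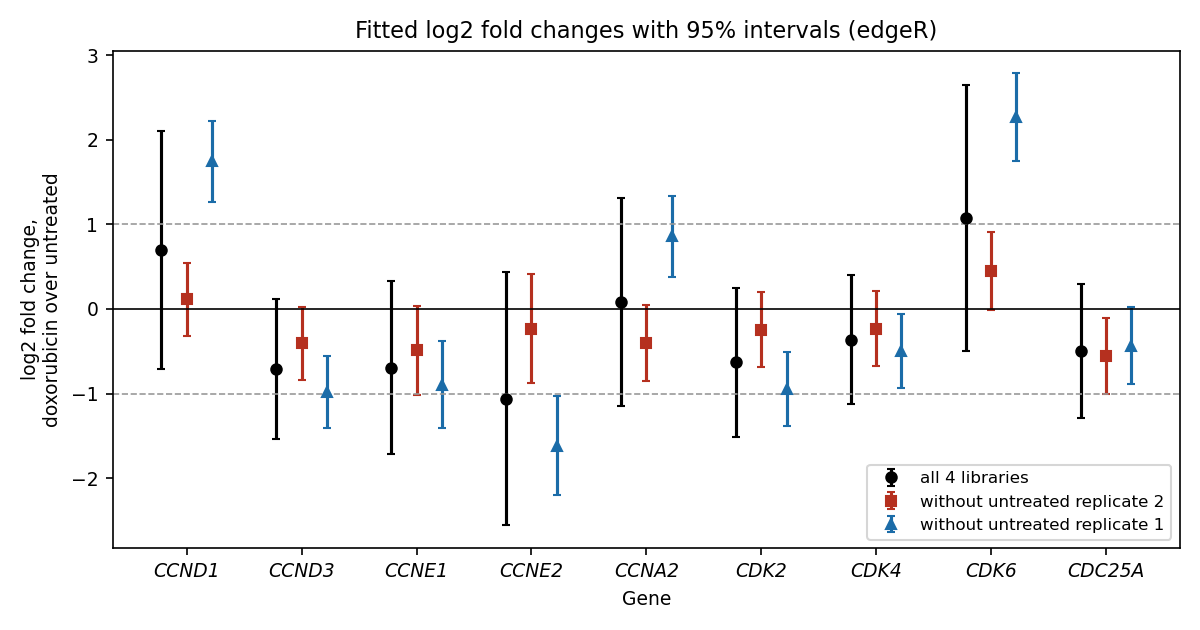
Fitted log2 fold change of doxorubicin over untreated cells (edgeR) with 95% intervals for the tested members, with all 4 libraries (black), without untreated replicate 2 (red) and without untreated replicate 1 (blue). Dashed lines mark 1 and -1, and the black intervals cross 0 for all 9 members, while CCNA2 changes sign between the black and red points.

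Levels of different genes were compared as CPM per kilobase of exon. By the median of the 4 libraries the order was CCND1 (67.3), CDK4 (58.1), CCND3 (50.3), CDK2 (44.8), CCNA2 (30.7), CDC25A (17.8), CCNE1 (8.95), CDK6 (7.28), CCNE2 (1.73) and CCND2 (0.00446). CDK2 was above CCNA2, CDC25A above CCNE1, and CCNE2 above CCND2 in all 4 libraries with ranges that did not overlap. The other neighbours in this order overlapped in range, so that CCND1, CDK4, CCND3 and CDK2 were not set apart by the spread over libraries. CCND1 led in both doxorubicin libraries (73.5 and 73.0) and in untreated replicate 1 (61.6), but was only 19.2 in untreated replicate 2, where CCND3 led with 77.3. With the length of the canonical transcript in place of all exons, CCND3 was the highest member in all 4 libraries. Its canonical transcript has 2026 bases, against 3901 bases for all of its exons.

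For the D-type cyclins and for the CDK4 and CDK6 pair, the sum per length varied less than its makeup. The D-type cyclins summed to 115 and 96.6 CPM per kilobase before the drug, and to 121 and 114 after it. CCND1 made up 53.6% and 19.9% of that sum before the drug, and 60.9% and 63.8% after it. With canonical transcript lengths these shares were 38.0% and 11.7% before the drug, and 45.2% and 48.4% after it, so that CCND3 was the larger part in all 4 libraries and the order of the libraries was the same. CDK4 and CDK6 together summed to 65.3 and 70.4 CPM per kilobase before the drug, and to 65.6 and 63.8 after it, with CDK6 making up 9.57% and 2.44%, and then 12.7% and 16.5%. In both, the libraries had the same order, with untreated replicate 2 lowest, untreated replicate 1 next and the doxorubicin libraries highest for CCND1 and CDK6.

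Ratios of counts within a library do not depend on how libraries are scaled. The ratio of CDK6 to CDK4 counts was 0.619 and 0.146 before the drug, and 0.849 and 1.15 after it. The ratio of CCND1 to CCND3 counts was 1.28 and 0.277, and then 1.73 and 1.96. Against untreated replicate 1, the mean log2 ratio in doxorubicin was higher by 0.68 for CDK6 to CDK4 and by 0.52 for CCND1 to CCND3, while untreated replicate 2 differed by -2.08 and -2.21. The ratio of CCND1 to CDK6 counts moved less, at 3.65 and 4.15 before the drug, and 3.28 and 2.57 after it. The E-type cyclins, in contrast, summed to 11.5 and 17.0 CPM per kilobase before the drug, and to 9.85 and 8.66 after it, with CCNE2 making up between 15.5% and 26.6%. The ratio of CCNE1 to CCNE2 counts was 3.15 and 1.60 before the drug, and 2.85 and 2.41 after it, and in both doxorubicin libraries it lay between the untreated values.

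**Figure D4:**
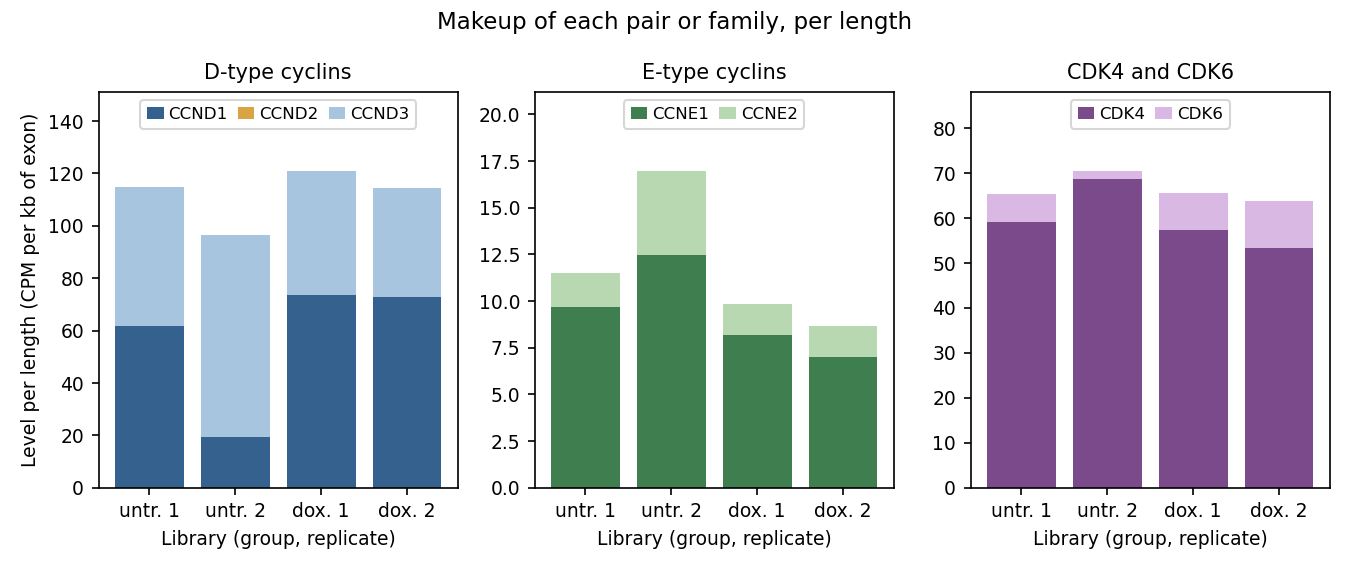
Stacked levels per length (CPM per kilobase of exon) of the D-type cyclins, the E-type cyclins and the CDK4 and CDK6 pair in each library, with bars that start at 0. CDK4 and CDK6 sum to between 63.8 and 70.4 in all libraries, while CCND1 is 61.6 in untreated replicate 1 and 19.2 in untreated replicate 2. CCND2 is too low to be seen.

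Other genes of the pathway were counted from 6 lists of 54 genes in all, of which 53 passed the filter on low counts. With all 4 libraries 0 were called (0.0% of all genes). Before adjustment 4 (CDKN2C, MCM5, MCM7 and TK1), all lower in doxorubicin, reached p under 0.05 by edgeR (4.39% of all genes). DESeq2 and the likelihood ratio and exact tests of edgeR called 0 of them as well. CDKN1A, the p21 gene, had 380 and 866 CPM before the drug, and 1003 and 880 CPM after it. Its log2 fold change was 0.44 (SE 0.44) with all libraries. It was 1.17 (SE 0.23) without untreated replicate 2 and -0.06 (SE 0.22) without untreated replicate 1. The rise of CDKN1A was thus seen against untreated replicate 1 and not in the fit against untreated replicate 2 alone.

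Among the 7 CDK inhibitors, 0 were called with all libraries, and their median log2 fold change was -0.64, which was 0.66 without untreated replicate 2. CDKN2C (p18) was the one at an unadjusted p-value under 0.05, with 89.0 and 238 CPM before the drug, and 78.9 and 59.3 CPM after it. CDKN2A, which encodes p16 and ARF, had 426 and 664 CPM before the drug, and 389 CPM in both libraries after it. CDKN1C (p57) was the lowest of the 7, at 0.882 to 2.27 CPM.

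Of the 13 pocket proteins, E2F and DP factors, 8 were above 0 with all libraries and 6 without untreated replicate 2, and 0 were called in either fit. RBL2, which encodes p130, the pocket protein of resting cells, had 22.2 and 8.62 CPM before the drug, and 37.0 and 42.9 CPM after it. Its log2 fold change was 1.21 (SE 0.54) with all libraries and 0.71 (SE 0.26, adjusted p = 0.0748 by edgeR) without untreated replicate 2. E2F8, a repressor E2F, had 5.07 and 18.3 CPM before the drug, and 3.64 and 4.53 CPM after it. E2F5 had a log2 fold change of 0.11 with all libraries and -0.55 without untreated replicate 2.

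The 13 E2F-driven S phase genes, which include the MCM helicase subunits and nucleotide synthesis enzymes, were all below 0 in both fits, with 0 called in either. Over all genes, 49.2% were below 0 with all libraries and 46.0% without untreated replicate 2. Untreated replicate 2 was the highest library for 11 of the 13, and for 6392 of all 17479 genes. Their median log2 fold change was -0.72 against 0.01 over all genes tested, and -0.39 against 0.05 without untreated replicate 2. MCM5 had 249 and 501 CPM before the drug, and 191 and 154 CPM after it. Leaving out untreated replicate 2 gave it a log2 fold change of -0.67, under the threshold of 1 in size. MCM7 and RRM2 had -0.56 and -0.59 in that fit.

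In the 8 genes of cyclin turnover, 0 were called in either fit. SKP2 is the subunit of a ubiquitin ligase that marks p27 for degradation. It had 97.4 and 28.3 CPM before the drug, and 63.0 and 69.6 CPM after it. Its log2 fold change was -0.09 with all libraries and -0.70 without untreated replicate 2. CUL1, the scaffold of the same ligase, had 0.21 and -0.39 in these fits. RBX1 and AMBRA1 had log2 fold changes of -0.54 and 0.34 with all libraries. Of the 8 genes of mitotic cyclins and CDK1 regulation, 7 were tested and 0 were called in either fit. CDC25B, a phosphatase related to CDC25A, had 314 and 222 CPM before the drug, and 228 and 214 CPM after it. Its log2 fold change without untreated replicate 2 was -0.64. PKMYT1 and WEE1, kinases that inhibit CDK1, had -0.24 and 0.64 in that fit. Among the 5 genes of the CDK-activating kinase and the Cks subunits 0 were called. CDK7, the CDK-activating kinase itself, was 1.69 CPM in doxorubicin replicate 1 and 19.6 CPM in replicate 2, and CKS1B and CKS2 had log2 fold changes of -0.75 and -0.76 with all libraries, and -0.01 and -0.26 without untreated replicate 2.

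**Figure D5:**
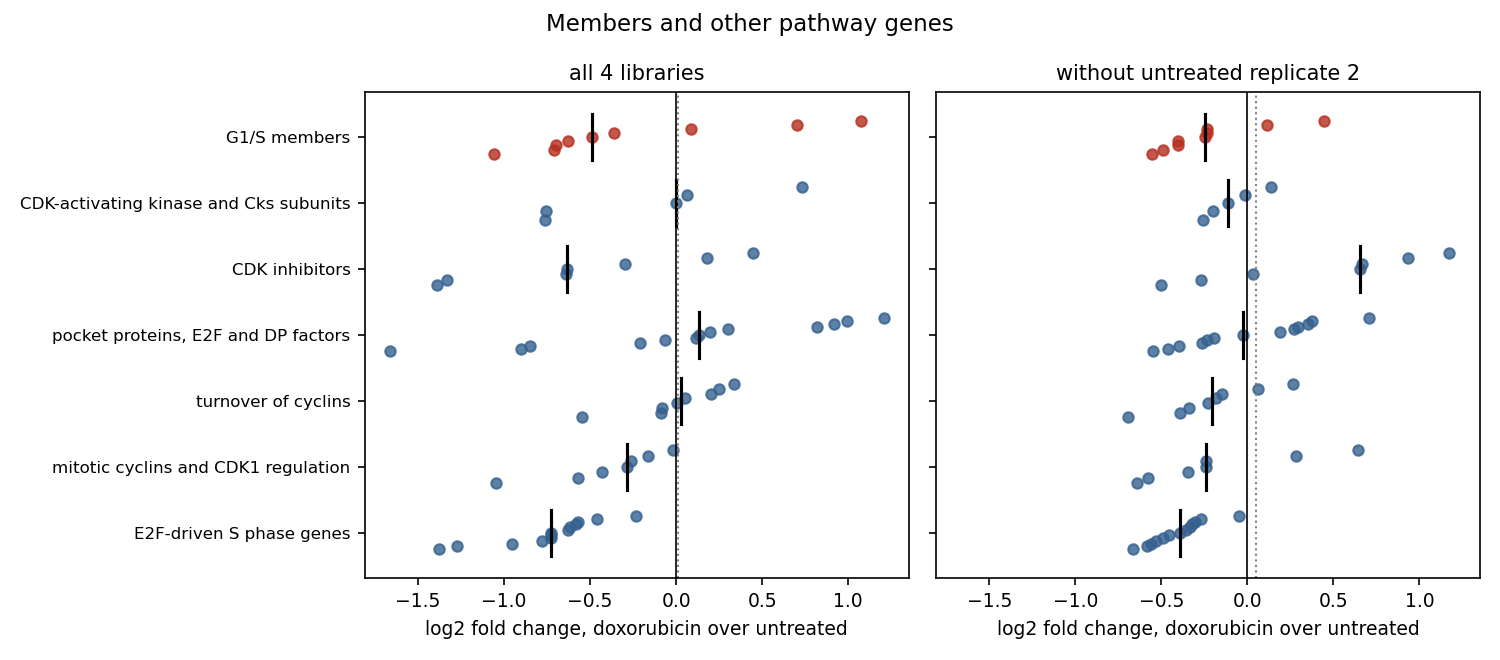
Log2 fold change of doxorubicin over untreated cells for the tested members (red) and the genes of the 6 pathway lists (blue), with all 4 libraries (left) and without untreated replicate 2 (right). Each point is a gene, black bars are list medians and the dotted line is the median of all genes tested. All 13 E2F-driven S phase genes lie left of 0 in both panels, and the median of the CDK inhibitors moves from -0.64 to 0.66.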

How the data were processed

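RNA-seq of 2 untreated and 2 doxorubicin-treated libraries labelled as HepG2 was analysed. Samples were grouped by their titles. Per the labels, mRNA was selected on poly-T beads. The authors trimmed reads with Cutadapt, mapped them with HISAT2 to hg38, and deposited raw counts per gene symbol. The methods name HTSeq for counting, but the files have a header in the manner of featureCounts, so the counter, and with it the treatment of reads shared by overlapping genes, is unsure. Per the file headers the annotation was GENCODE release 31 (basic). Tool versions and the use of strand are not given in the sources used here.

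edgeR 4.0.16 (R 4.3.3) was run on the counts. filterByExpr kept 17479 of 59050 genes, and TMM factors scaled the libraries. The quasi-likelihood fit (prior count 0.125) compared doxorubicin with untreated, and p-values were adjusted by Benjamini-Hochberg over all tested genes. A call needed an adjusted p-value under 0.05 together with a change of 1 or more in log2 size. Depth was 27572740 to 36272180 counts per library. CPM intervals are exact Poisson at 95%, and 3 counts were the floor. Positions and exon lengths came from GENCODE release 44 (GRCh38), promoters from RefSeq (GRCh38.p14). DESeq2 1.42.0 was an alternative. Scripts were tested on simulated data.

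The members and lists were chosen with earlier results of these data known. All 10 members were named. From each pathway list, up to 2 genes with the lowest p-value in the fit of all 4 libraries and up to 2 with the largest change without untreated replicate 2 were named, and TK1 after its value was seen. The miRNA data of the study were not analysed here.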

Additional observations from a re-analysis of the deposited data

How the results depend on the processing

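Alternatives were RLE factors, library totals alone, no filter, DESeq2, 2 other edgeR tests, the replicate block, the adjusted p-value with no fold threshold, a prior count of 2, and leaving out 1 library. An older form of the quasi-likelihood method and the canonical transcript length were chosen after seeing the data. Over all genes, 0 were called with all 4 libraries (768 before adjustment), against 90 by DESeq2, 64 by the likelihood ratio test, 38 by the exact test and 20 with the replicate block, and the cause was not tested. Leaving out 1 library gave 0 to 7173 calls over all genes (871 without untreated replicate 2, 7173 without untreated replicate 1), 0 to 3 among the members and 0 to 25 among the other pathway genes. A fit that leaves 1 library in a group assumes that it varies like the other group. No 4-library alternative called a member or turned its direction. Leaving out 1 library put the log2 fold change of CCNA2 between -0.40 and 0.86, negative only without untreated replicate 2, and the median over the members between -0.53 and -0.25. Library totals alone moved the median log2 fold change over all genes from 0.01 to 0.17. Deviations of same-numbered libraries had a correlation of 0.0219. With 2 libraries in a group and untreated replicate 2 far from its partner, this value cannot show whether same-numbered libraries share a batch or culture. The replicate block changed no call of a member. The canonical length moved the median level of CCND3 from 50.3 to 96.9 CPM per kilobase.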
